A study of Mus musculus with 27 samples.

Results

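The change of HuR enrichment by TM7nox was measured in RAW264.7 cells, a mouse macrophage line. For each gene it is the log2 ratio of RNA pulled down with an antibody against HuR (ribonucleoprotein immunoprecipitation, RIP) to total RNA in LPS+TM7nox, minus the same ratio in LPS. It rests on 16 of the study's 27 libraries, 4 in each of 4 groups: total RNA and RIP from cells given LPS with the DMSO vehicle, and total RNA and RIP from cells given LPS with TM7nox. All 16 libraries therefore come from LPS-treated cells. LPS, a bacterial lipopolysaccharide that macrophages sense as a sign of infection, was used at 1 µg/ml and TM7nox at 10 µM, both for 6 h. A further 8 libraries, 4 of RNA and 4 of RIP from cells given DMSO without LPS, shared the estimate of spread and were used to choose genes by their recovery there. Control IgG gave 1 library in LPS and 1 in LPS+TM7nox, both replicate 3. The labels number the replicates 1 to 4 and do not say that they were separate cultures, so p-values measure the spread between these samples, which may be technical.

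HuR, the product of Elavl1, is an RNA-binding protein that holds U-rich and AU-rich stretches, mostly in 3′ UTRs, and is known for stabilising short-lived mRNAs of cytokines, growth factors and RNA-binding proteins. In macrophages AU-rich elements of inflammatory mRNAs are also bound by proteins that promote decay, such as the product of Zfp36. TM7nox is a tanshinone mimic, a class of compounds designed to interfere with the binding of HuR to RNA. The comparison asks whether the compound altered how much of each mRNA was recovered with HuR, given how much of that mRNA the cells held.

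The stretches below show the kind of sequence in question for the mRNAs that the results turn on. Each is the window of 30 bases in the 3′ UTR that holds most copies of ATTTA and then most T, read on the mRNA strand with T for U, and capitals mark those copies. The sequences are of GRCm39, with GENCODE M39 transcripts.
Tnf, chr17:35418654-35418683, minus strand: ttATTTAttATTTATTTAttATTTATTTAt
Il1b, chr2:129206722-129206751, minus strand: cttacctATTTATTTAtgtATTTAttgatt
Ptgs2, chr1:149981548-149981577, plus strand: tATTTATTTATTTAtgtgaagaATTTAatt
Elavl1, chr8:4335777-4335806, minus strand: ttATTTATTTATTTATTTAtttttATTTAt
Hnrnpc, chr14:52310682-52310711, minus strand: tttattttggaaactATTTAgaactATTTA
Icam1, chr9:20939612-20939641, plus strand: ttcttgatgtATTTAttaATTTAgagtttt
Actb, chr5:142889363-142889392, minus strand: tttgttttggcgcttttgactcaggATTTA
The windows of Tnf and Elavl1 held 5 copies each, that of Ptgs2 4 and that of Il1b 3, counting copies that share a base. Over 10985 coding genes tested, 73.5% had such a window with at least 1 copy, 21.7% with at least 2 and 2.88% with at least 3. A match of letters is a description and does not show that HuR was bound there.

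The 16 libraries held 16.3 to 41.4 M counts. Of the DMSO libraries, RNA replicate 1 held only 2.73 M, and the other RNA and RIP libraries 20 to 35.1 M. IgG held 24.5 M in LPS and 8.87 M in LPS+TM7nox. In the 16 libraries, mitochondrially encoded genes took 12.1% to 19.4% of counts in RNA and 0.559% to 1.86% in RIP. The highest RIP share was that of RIP LPS replicate 4. That library also lay nearest to the RNA libraries on the first principal component (51.5, against 66.2 to 101.7 for the other RIP libraries). All 10 macrophage markers examined were detected in each group, with summed levels in CPM (counts relative to the scaled total of the library) of 5064 to 6577 in RNA LPS and 3458 to 5434 in RNA LPS+TM7nox. In RIP they summed to 2119 to 3257 in LPS and 879 to 1930 with TM7nox, so that the treatments did not overlap in RIP, and their part in the results was not tested. Fibroblast and epithelial markers summed to at most 0.356 CPM in any of the 16 libraries. T cell markers summed to 5.36 to 11.9 CPM, with 5 of 6 under 1 CPM in each group. B cell markers summed to 1.53 to 4.28 CPM in RNA and 11.6 to 30.7 in RIP, with 4 of 5 under 1 CPM in each group.

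Of 14311 genes tested for a change of recovery with HuR relative to RNA, 1 was called (0.00699%) by edgeR's quasi-likelihood F test at a Benjamini-Hochberg adjusted p, or FDR, under 0.05. It was Gm5526, a processed pseudogene, which was higher. The fit with the replicate number as a block called 2, Gm5526 and Hnrnpc, while DESeq2 called 3 and limma voom 1. An unadjusted p under 0.05 was reached by 771 genes (5.39%), 458 higher (3.2%) and 313 lower (2.19%). With the replicate block that number was 1596 (966 higher, 630 lower), and with a block within each treatment 1569 (935 higher, 634 lower). Scaling to library totals in place of TMM made that split 547 higher and 189 lower. In 1113 genes (7.78%) the 4 pair values of log2 RIP over RNA did not overlap between treatments, with 555 higher (3.88%) and 558 lower (3.9%).

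The intervals show which sizes of change, relative to most other genes, the fit could see. A change of recovery shared by all genes would be taken up by the scaling and does not show in them. The median standard error of the log2 change was 0.364 over all genes tested and 0.282 over the 8531 genes with a mean of at least 5 CPM. The 95% interval lay wholly within a log2 of 1 on either side of 0 for 6276 genes (43.9%), and for 5915 of those 8531 (69.3%). For the remaining genes a change of recovery by a log2 of 1 or more lay within the interval.

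Levels in RIP changed with levels in RNA. In the same fit, TM7nox raised 1145 genes (8%) and lowered 1393 (9.73%) in RIP, and raised 681 (4.76%) and lowered 860 (6.01%) in RNA. Of the 681 genes raised in RNA, 671 (98.5%) moved the same way in RIP, 497 of them called, and 0 were called the opposite way. Of the 860 lowered in RNA, 841 (97.8%) moved the same way in RIP, 555 called, again with 0 called the opposite way. The median log2 change of the raised genes was 0.96 in RNA and 0.95 in RIP, and that of the lowered genes -0.96 and -0.87. Across the 8531 genes of at least 5 CPM, the RIP and RNA changes had a Pearson correlation of 0.817 and a Spearman correlation of 0.735. These are across genes, which are not independent replicates, and the RIP and RNA changes share no library.

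**Figure D1:**
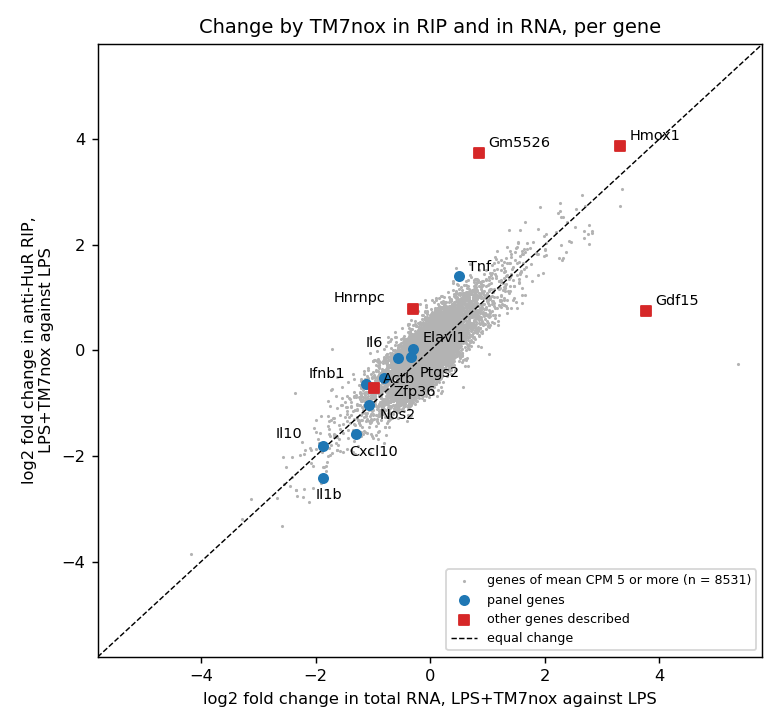
Log2 fold change by TM7nox in total RNA (horizontal axis) and in anti-HuR RIP (vertical axis), both LPS+TM7nox against LPS, with 1 grey point per gene of at least 5 CPM on average and the named genes drawn whatever their level (Gm5526 and Gdf15 are below 5 CPM). Genes on the dashed line changed equally in both; Hmox1 and Il1b lie near it at either end, Gm5526 (3.74 in RIP, 0.85 in RNA) lies above it and Gdf15 (0.75 in RIP, 3.76 in RNA) below it.

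Hmox1, which encodes heme oxygenase 1, shows how a large change in level was carried into RIP. It stood at 66.5, 76.3, 122 and 120 CPM in RNA LPS (replicates 1 to 4) and at 766, 1270, 933 and 881 in RNA LPS+TM7nox. In RIP it stood at 615, 525, 817 and 459 CPM in LPS and 8470, 13100, 8150 and 5830 in LPS+TM7nox. Every TM7nox library was above every LPS library in both assays. The log2 change was 3.32 in RNA and 3.88 in RIP, and the change of recovery was 0.56 (SE 0.350, 95% interval -0.16 to 1.28, edgeR FDR 0.871). Without RIP LPS+TM7nox replicate 2, which held its highest level, it was 0.33. Hmox1 was chosen for description after its values were seen.

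The panel of 10 genes held Elavl1, 8 genes for LPS-induced signals and enzymes, and Zfp36, an AU-rich element binding protein that promotes decay. None of the 10 was called for a change of recovery by edgeR, DESeq2 or limma voom, against 0.00699% of all genes by edgeR, and 1, Tnf, had an unadjusted p under 0.05. In the 24-library fit the log2 changes ran from -0.53 (Il1b) to 0.89 (Tnf).

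Elavl1 itself (chromosome 8, 4332576 to 4375489, with Ccl25 overlapping on the opposite strand) gave mRNA that was strongly recovered with its own protein. In RNA it stood at 108, 126, 92.1 and 97 CPM in LPS and at 84.3, 97.9, 84.8 and 78 in LPS+TM7nox. RIP held 3830, 4650, 3120 and 2640 CPM in LPS and 3800, 4920, 2750 and 2940 in LPS+TM7nox. The treatments overlapped in both assays. Its log2 RIP over RNA was 5.04 ± 0.196 in LPS, 5.35 ± 0.277 with TM7nox and 4.99 ± 0.18 in DMSO (SD, n = 4 each). The change was 0.31 (SE 0.295, 95% interval -0.29 to 0.92, edgeR FDR 0.894) and was positive in 3 of 4 pairs. It was 0.15 without RIP LPS+TM7nox replicate 2 and 0.50 without RIP LPS replicate 2. When only genes with anti-HuR at least 2 times IgG were kept and scaled, it was 0.12. With control IgG its log2 ratio to RNA was -0.07 in LPS and -0.30 in LPS+TM7nox, so that the recovery was far above IgG in both.

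Tnf (chromosome 17, 35418357 to 35420983), a cytokine gene long studied for its AU-rich element, had the highest value of the panel in the 24-library fit. In RNA it stood at 533, 747, 657 and 704 CPM in LPS and at 682, 742, 1150 and 1170 in LPS+TM7nox. The RIP libraries held 648, 476, 425 and 502 CPM in LPS and 2400, 591, 878 and 1540 in LPS+TM7nox. Replicate 1 was the highest RIP library of both treatments, and the lowest TM7nox library lay below the highest LPS library in RIP. Tnf rose in RIP (log2 1.40, SE 0.304, FDR 0.00235) and its change in RNA was 0.51 (SE 0.304, FDR 0.339). The same-numbered log2 RIP over RNA went from 0.28 to 1.82 in replicate 1, from -0.65 to -0.33 in replicate 2, from -0.63 to -0.39 in replicate 3 and from -0.49 to 0.39 in replicate 4. All 4 pairs were therefore higher with TM7nox, but the treatments overlapped. The change of recovery was 0.89 (SE 0.430, 95% interval 0.01 to 1.78), with an unadjusted p of 0.0487 and an FDR of 0.871, and it did not pass the threshold. Without RIP LPS+TM7nox replicate 1 the value was 0.51, below those of Ifnb1 (0.85) and Il6 (0.69). Tnf was also below Ifnb1 by limma voom (0.74 and 1.02) and below Il6 without RIP LPS replicate 3 (0.86 and 0.89).

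Both of these Tnf values lay far below that in DMSO cells, where log2 RIP over RNA was 3.61 ± 0.148 (SD, n = 4). In replicate 3 they were also below IgG, whose log2 ratio to RNA for Tnf was 0.76 in LPS and 0.06 in LPS+TM7nox. There Tnf stood at 1110 CPM in IgG LPS against 425 in RIP LPS, and at 1200 in IgG LPS+TM7nox against 878 in RIP LPS+TM7nox. How much of the Tnf signal in RIP of LPS-treated cells came with HuR was not tested.

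Il1b (chromosome 2, 129206490 to 129213059, overlapped by Il1bos and Gm14023 on the other strand), which encodes an inflammatory cytokine, had the lowest value of the panel. In RNA it stood at 817, 1570, 985 and 1070 CPM in LPS and at 154, 360, 366 and 333 in LPS+TM7nox. Its RIP levels were 466, 633, 564 and 565 CPM in LPS and 77.9, 111, 136 and 95 in LPS+TM7nox. No TM7nox library reached an LPS library in either assay. Il1b fell by 1.87 on the log2 scale in RNA (FDR 0.00342) and by 2.41 in RIP (FDR 0.000244, both edgeR). Its change of recovery was -0.53 (SE 0.568, 95% interval -1.70 to 0.63, edgeR FDR 0.905) and was negative in 4 of 4 pairs. Il1b was also more abundant in IgG than in RIP, at 1910 against 564 CPM in LPS and 447 against 136 in LPS+TM7nox (replicate 3).

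Il10, Cxcl10 and Nos2, for an anti-inflammatory cytokine, a chemokine and the inducible nitric oxide synthase, fell in both RNA and RIP. Their log2 changes were -1.87, -1.29 and -1.07 in RNA and -1.80, -1.58 and -1.03 in RIP, with edgeR FDRs of 0.00135 to 0.0129 in RNA and 0.000185 to 0.0116 in RIP. The changes of recovery were 0.07 for Il10 (95% interval -0.997 to 1.14), -0.29 for Cxcl10 (-1.06 to 0.48) and 0.04 for Nos2 (-0.77 to 0.85). That of Cxcl10 was -0.17 without RIP LPS replicate 1 or without RNA LPS+TM7nox replicate 2. Zfp36 fell in RNA by 0.80 on the log2 scale (FDR 0.0237) and had a value of -0.53 in RIP (FDR 0.116). Its change of recovery was 0.27 (95% interval -0.39 to 0.94), with 0.47 without RIP LPS+TM7nox replicate 1 and 0.18 without replicate 4.

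Ptgs2, which encodes the inducible cyclooxygenase, had a change of recovery of 0.21 (95% interval -0.76 to 1.19), positive in 4 of 4 pairs. Leaving out 1 library moved it to between 0.08 (without RIP LPS+TM7nox replicate 3) and 0.37 (without RNA LPS replicate 1). Il6 and Ifnb1, for a cytokine and for interferon beta, were the least certain of the panel, at 0.42 (-1.17 to 2.01) and 0.48 (-1.20 to 2.17). For Ifnb1 replicate 1 of RNA LPS+TM7nox held 3 counts, and its pair rose by 2.34 where the other pairs rose by 0.21 to 0.65. Without RIP LPS+TM7nox replicate 3 the value was -0.14 for Il6 and -0.20 for Ifnb1. In LPS the recovery of Nos2 was below its RNA level (log2 RIP over RNA -1.36 ± 0.354, SD, n = 4), while IgG gave 0.77 in replicate 3. For Ptgs2 the same values were -0.29 ± 0.156 and 0.41.

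**Figure D2:**
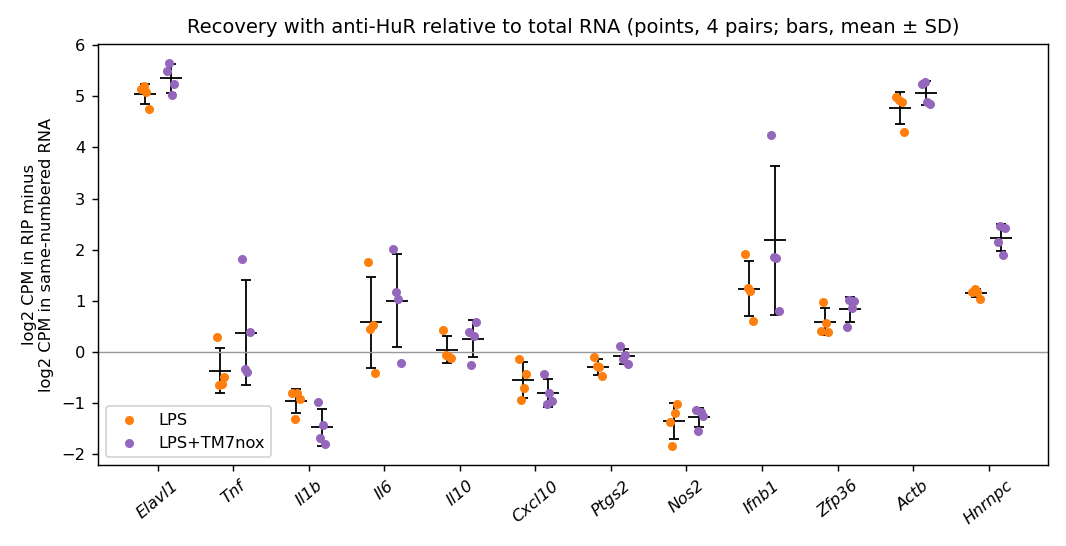
Log2 CPM in RIP minus log2 CPM in the same-numbered RNA library for the 10 panel genes, Actb and Hnrnpc, in LPS (orange) and LPS+TM7nox (purple); points are the 4 pairs, bars the mean ± SD. The treatments overlap for every panel gene and for Actb, while the 4 LPS+TM7nox pairs of Hnrnpc (1.90 to 2.47) lie above its 4 LPS pairs (1.04 to 1.23).

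Actb, the beta-actin gene, took a large share of RIP counts, 12.3% to 18.3% in LPS and 8% to 11.7% with TM7nox, against 1.06% to 1.29% and 0.549% to 0.634% in RNA. Its level thus fell in both assays (log2 -0.99 in RNA, FDR 0.00476, and -0.71 in RIP, FDR 0.0286, both edgeR). The log2 ratio of its RIP share to its RNA share (scaled to library totals, with no TMM factor) was 3.83, 3.87, 3.85 and 3.53 in LPS and 4.2, 4.11, 4.07 and 3.86 in LPS+TM7nox. Replicates 1 to 3 of LPS+TM7nox lay above every LPS pair, and replicate 4 of LPS+TM7nox did not. The means were 3.77 ± 0.158 and 4.06 ± 0.142 (SD, n = 4 each), a difference of 0.292 that was positive in 4 of 4 pairs. An exact two-sided permutation test gave p = 0.0571 (0.0571 adjusted over 3 such tests), which did not pass the threshold. The smallest p that 4 values against 4 can give is 0.0286, and the paired exact p, here 0.125, cannot go lower with 4 pairs. In the 24-library fit the change of recovery of Actb was 0.27 (SE 0.317, 95% interval -0.38 to 0.93, FDR 0.91), and 0.17 without RIP LPS replicate 4. When only genes with anti-HuR at least 2 times IgG were kept and scaled, it was 0.09.

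The called gene, Gm5526, is annotated as a transcribed processed pseudogene on chromosome 1 (45896492 to 45896914, minus strand). It stood at 2.69, 1.85, 2.13 and 1.86 CPM in RNA LPS and at 4.33, 2.71, 4.53 and 3.82 in RNA LPS+TM7nox. In RIP it stood at 0.88, 0.727, 1.35 and 0.798 CPM in LPS and at 10.9, 13.2, 12.3 and 14.4 in LPS+TM7nox. The treatments did not overlap in either assay, and the gap was far wider in RIP. The log2 change was 0.85 in RNA, 3.74 in RIP and 2.89 in recovery (SE 0.367, 95% interval 2.13 to 3.64, edgeR FDR 0.00047), higher in 4 of 4 pairs. In IgG it stood at 0.992 CPM in LPS and 2.53 in LPS+TM7nox. The FDR was 0.142 without replicate 2 and 0.0902 without replicate 4, with log2 changes of 2.72 and 2.82.

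Where the reads counted for Gm5526 came from is uncertain. Its 423 bases match Myl6, a myosin light chain gene, at 99.3% identity over 410 bases, and 4 other processed pseudogenes, Gm10080, Gm5915, Gm8894 and Gm11836, at 97.4% to 98.8%. It also lies wholly within 2 long noncoding RNA genes, ENSMUSG00000123149 on the same strand and Gm69535 on the other. Myl6 itself stood at 33.8 to 77.6 CPM in RIP LPS and 26.8 to 43.8 in RIP LPS+TM7nox, and its change of recovery was -0.29 (SE 0.301, edgeR FDR 0.903), opposite in sign to that of Gm5526. The gene lies outside the rule for named genes because of its predicted symbol and type and is described because it is the 1 gene called.

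Of the other genes tested, Hnrnpc and Gdf15 came next by p-value. Hnrnpc (chromosome 14, 52310561 to 52341614) encodes a nuclear ribonucleoprotein that binds runs of U. It stood at 137, 146, 167 and 190 CPM in RNA LPS and at 113, 123, 151 and 131 in RNA LPS+TM7nox. RIP levels were 310, 344, 379 and 390 CPM in LPS and 496, 682, 563 and 698 in LPS+TM7nox. The RIP libraries did not overlap between treatments and the RNA libraries did. Hnrnpc rose in RIP (log2 0.78, FDR 0.000553), with a value of -0.31 in RNA (FDR 0.21). The change of recovery was 1.08 (SE 0.208, 95% interval 0.66 to 1.51), higher in 4 of 4 pairs, with an edgeR FDR of 0.158, above the threshold. With the replicate block it was 0.00133 and by DESeq2 2.03e-05, and Hnrnpc was called in 9 of 34 alternatives. With IgG its log2 ratio to RNA was 0.11 in LPS and -0.04 in LPS+TM7nox.

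Gdf15 (chromosome 8, 71082038 to 71091537, overlapped by Gm34154 on the other strand) encodes a cytokine of the TGF-beta family made in cell stress. In RNA it stood at 0.198, 0.479, 0.405 and 0.465 CPM in LPS and at 4.12, 2.23, 6.89 and 8.26 in LPS+TM7nox. In RIP the levels were 2.55, 1.77, 0.676 and 1.37 CPM in LPS and 2.86, 1.82, 3.14 and 2.89 in LPS+TM7nox. The RNA libraries were apart and the RIP libraries overlapped. Gdf15 rose in RNA (log2 3.76, FDR 3.27e-06), and its RIP value of 0.75 was not called (FDR 0.228). The change of recovery was -3.01 (SE 0.601, 95% interval -4.25 to -1.78, edgeR FDR 0.169), lower in 4 of 4 pairs. It rests on 5 to 15 counts per RNA LPS library. IgG moved the same way, with a log2 ratio to RNA of 0.92 in LPS and -0.20 in LPS+TM7nox (replicate 3). Gdf15 was more abundant in IgG than in RIP of that replicate, at 0.837 against 0.676 CPM in LPS and 5.98 against 3.14 in LPS+TM7nox. It was called by DESeq2 (FDR 0.00307), without RIP LPS replicate 3 (0.0377) and without a filter on low counts (0.000475).

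The other genes with the lowest p-values among annotated genes of at least 5 CPM were Ufd1, Taf2, Zfc3h1, Atp7a and Bod1l among those higher and Icam1, Slc35c1, Tnfrsf1a, Reep5, Mrpl27 and Nr1h2 among those lower. These 11 genes, Hnrnpc and Gdf15 were chosen after their values were seen, and none passed the threshold by edgeR (lowest FDR of the 11, 0.61). Ufd1, which encodes a cofactor in the handling of ubiquitinated proteins, had the highest value of the 11. It stood at 42.8, 41.1, 44.2 and 32.2 CPM in RIP LPS and at 122, 148, 111 and 121 in RIP LPS+TM7nox, while RNA was at 26.1 to 30.9 and 41 to 50.7. Its levels did not overlap between treatments in either assay. The change of recovery was 0.95 (SE 0.227, FDR 0.61), and Cdc45 overlaps Ufd1 on the other strand.

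Icam1 (chromosome 9, 20926672 to 20940113, overlapped by Gm47079 on the other strand) encodes an adhesion molecule induced by inflammatory signals. In RNA it stood at 175, 138, 134 and 153 CPM in LPS and at 150, 138, 161 and 155 in LPS+TM7nox. RIP held 126, 150, 118 and 129 CPM in LPS and 74.3, 92.1, 76 and 79 in LPS+TM7nox. The RNA libraries overlapped, and every RIP LPS+TM7nox library lay below every RIP LPS library. Icam1 fell in RIP by 0.70 on the log2 scale (FDR 0.000882), and its value in RNA was 0.01 (FDR 0.985). The change of recovery was -0.71 (SE 0.196, 95% interval -1.11 to -0.31, edgeR FDR 0.871). In IgG Icam1 stood at 164 CPM in LPS and 146 in LPS+TM7nox, both above RIP in the same replicate.

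Tnfrsf1a encodes a receptor for TNF. It stood at 116 to 133 CPM in RNA LPS and 94.8 to 104 in RNA LPS+TM7nox, and at 89.9 to 111 and 47.8 to 58.3 in RIP. The treatments did not overlap in either assay. It fell in RIP by 0.97 on the log2 scale (FDR 1.55e-05), with a value of -0.33 in RNA (FDR 0.111) and a change of recovery of -0.63 (SE 0.187, FDR 0.871). Its log2 RIP over RNA was -0.31 ± 0.18 in LPS, -0.94 ± 0.148 with TM7nox and -0.76 ± 0.315 in DMSO (SD, n = 4 each). Tnfrsf1a was more abundant in IgG than in RIP of replicate 3, at 114 against 89.9 CPM in LPS and 85.1 against 58.3 in LPS+TM7nox.

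Genes recovered with HuR in DMSO cells were chosen from the 8 DMSO libraries, which do not enter the contrast. There, 2237 genes (15.6%) had an FDR under 0.05, a log2 RIP over RNA of at least 1 and a mean of at least 5 CPM. Of these 2237, 127 (5.68%) had a change of recovery by TM7nox below 0, against 49.7% of all 14311 genes. The median change was 0.33, against 0.00 over all genes. None was called by edgeR, DESeq2 or limma voom, and 219 had an unadjusted p under 0.05 with a higher value and 2 with a lower value, where 3.2% and 2.19% of all genes tested did. Without replicate 4 the median was 0.24 and 12.5% were below 0. When only genes with anti-HuR at least 2 times IgG were kept and scaled, 23.2% of the 2108 genes left were below 0, with a median of 0.13 against 0.12 over all 4721 genes then tested.

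Across the range of recovery in DMSO the sign turned over. The 489 genes with a DMSO log2 RIP over RNA below -2 had a median change of -0.24, and the 2117 genes from -2 to -1 a median of -0.21. The median was -0.13 for the 2292 genes from -1 to 0 and 0.13 for the 1348 genes from 0 to 1. It was 0.31 for the 904 genes from 1 to 2 and 0.33 for the 1343 genes of 2 or more. In the last of these groups the median log2 RIP over RNA was 3.02 in DMSO, 2.93 in LPS and 3.27 in LPS+TM7nox. In the group below -2 it was -2.22, -1.64 and -1.88. By pair, the median difference below -2 was -0.09, -0.06 and -0.07 in replicates 1 to 3 and -0.74 in replicate 4. From -2 to -1 it was -0.11, -0.11 and -0.09 against -0.53, and from -1 to 0 it was -0.07, -0.09 and -0.09 against -0.27. The medians at the low end thus rested mainly on replicate 4. For genes of 2 or more it was 0.26, 0.40 and 0.01 in replicates 1 to 3 and 0.65 in replicate 4, so that replicate 4 was the farthest from 0 at both ends. Across 8089 coding genes, log2 RIP over RNA in LPS and in LPS+TM7nox had a Pearson correlation of 0.988 and a Spearman correlation of 0.979, so that the order of genes was nearly the same.

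**Figure D3:**
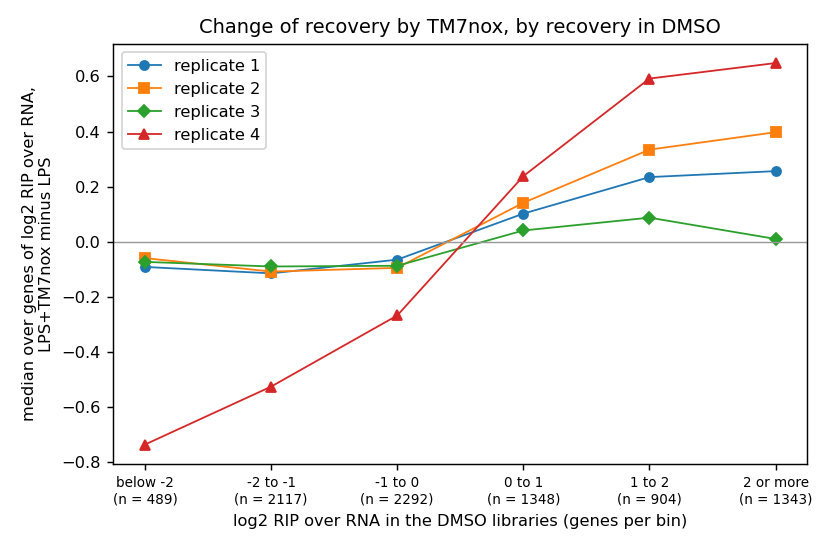
Median over genes of the difference in log2 RIP over RNA, LPS+TM7nox minus LPS, in each same-numbered pair (4 lines), for genes grouped by their log2 RIP over RNA in DMSO. All 4 lines lie below 0 on the left of the axis and above 0 on the right; replicate 4 spans from -0.74 to 0.65 and replicate 3 from -0.09 to 0.09.

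The same was measured with 1 value per pair of libraries. The median log2 RIP over RNA of the 2237 genes, minus that of all genes, was 2.37, 2.62, 2.43 and 2.10 in LPS and 2.71, 3.07, 2.57 and 2.93 in LPS+TM7nox. Replicate 4 of LPS was the lowest, and replicate 3 of LPS+TM7nox lay below replicate 2 of LPS. The means were 2.38 ± 0.214 and 2.82 ± 0.222 (SD, n = 4 each), with 2.59 ± 0.0653 in DMSO. The interquartile range of log2 RIP over RNA over genes was 1.97, 2.23, 1.94 and 1.64 in LPS and 2.31, 2.64, 2.12 and 2.56 in LPS+TM7nox. Its means were 1.94 ± 0.241 and 2.41 ± 0.24, with 2.34 ± 0.0753 in DMSO. Both were higher with TM7nox in 4 of 4 pairs, by 0.139 to 0.824 and by 0.186 to 0.926. Each had an exact two-sided permutation p of 0.0571 (adjusted 0.0571) and a paired exact p of 0.125, so neither passed the threshold.

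Replicate 4 gave the largest difference of both measures, and RIP LPS replicate 4 had the highest mitochondrial share of the RIP libraries, 1.86%. The next highest was RIP LPS+TM7nox replicate 1, at 1.72%. Fitted without RIP LPS replicate 4, the 2237 genes had a median change of 0.30 and 10.9% were below 0. With that library the values were 0.33 and 5.68%. Why replicate 4 differed was not tested. The differences of the 2 measures were 0.438 and 0.466 over all 4 pairs and 0.309 and 0.313 without replicate 4. In replicates 1 and 2 alone they were 0.394 and 0.377, and in replicates 3 and 4 alone 0.481 and 0.556. In IgG, measured once per treatment in replicate 3, the same 2237 genes stood at -0.0313 relative to all genes in LPS and -0.0355 in LPS+TM7nox. The interquartile range of log2 IgG over RNA was 0.492 and 0.515.

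Genes were also grouped by the U share of the 3′ UTR. This share could be computed for 97.7% of coding genes tested, and 8089 of them also had at least 5 CPM and a DMSO value. In the quintile of genes with the lowest U share (8.62% to 25.9%) the median change of recovery was -0.23, and 79.1% of genes were below 0. The next quintiles had medians of -0.11, 0.04 and 0.12. In the quintile with the highest U share (33.3% to 53.2%) the median was 0.21, and 27% were below 0. The median log2 RIP over RNA of that last quintile was 0.53 in DMSO, 0.47 in LPS and 0.71 in LPS+TM7nox. That of the first quintile was -0.94, -0.68 and -0.95. By pair, the median difference of the first quintile was -0.18, -0.13 and -0.14 in replicates 1 to 3 and -0.43 in replicate 4. In the last quintile it was 0.21, 0.23 and 0.09 against 0.31, so that the sign was shared by the 4 pairs at both ends and replicate 4 was the farthest from 0.

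U share also followed recovery in DMSO (Pearson 0.307, Spearman 0.322 across the 8089 genes) and the change by TM7nox (0.39 and 0.414), with no relation to the RNA change (0.0104 and 0.0206). The change of recovery and the DMSO recovery had a Pearson correlation of 0.64 and a Spearman correlation of 0.67. These are descriptions across genes of the same libraries. In the quintiles by 3′ UTR length the median change rose from -0.17 for the shortest to 0.19 for the longest. Length also followed recovery in DMSO (Pearson 0.276, Spearman 0.43). The parts of U share, length and DMSO recovery were not separated. The density of ATTTA in the 3′ UTR followed the change of recovery less closely (Pearson 0.153, Spearman 0.271). From the third to the fifth quintile its medians were 0.05, 0.13 and 0.10 and did not rise from each to the next. UTRs with 0 copies filled the first quintile (-0.24) and part of the second (-0.02). These ties were split by the order of genes, which followed the p-value of the change. The medians of the first and second quintiles therefore cannot be compared.

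**Figure D4:**
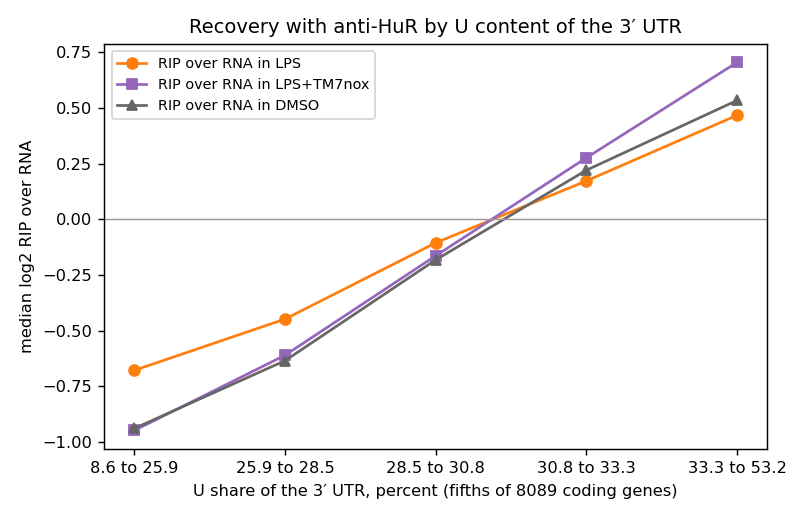
Median log2 RIP over RNA in LPS, LPS+TM7nox and DMSO for 8089 coding genes in quintiles by the U share of the 3′ UTR. The lines rise from left to right in all 3; LPS is the flattest, from -0.68 to 0.47, and LPS+TM7nox the steepest, from -0.95 to 0.71.

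Lists of genes were described by their counts and medians, without a list test. None of the genes in the 17 lists was called for a change of recovery by edgeR or limma voom, and DESeq2 called Hnrnpc. Among 45 mRNAs reported as HuR targets, 9 were below 0 and 2, Hif1a and Tnf, had an unadjusted p under 0.05, both higher, where 3.2% of all genes tested reached it with a higher and 2.19% with a lower value. The list's median change was 0.20, and its median difference was positive in 4 of 4 pairs (0.14 to 0.41). Hif1a, which encodes a hypoxia-induced transcription factor, had a change of recovery of 0.71 (SE 0.248, FDR 0.871), with 0.36 in RIP and -0.34 in RNA.

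Among 34 genes for proteins that bind AU-rich elements or 3′ UTRs, 4 were below 0 and the median was 0.28, positive in 4 of 4 pairs (0.14 to 0.51). An unadjusted p under 0.05 was reached by 4 higher genes (Hnrnpc, Hnrnpa1, Pcbp2 and Khsrp) and by 1 lower gene (Zc3h12a), against 3.2% and 2.19% of all genes. Hnrnpa1, for another nuclear ribonucleoprotein, had a change of recovery of 0.68 (SE 0.213, FDR 0.871), and Pcbp2, for a poly-C binding protein, of 0.60 (SE 0.279, FDR 0.871). Khsrp, whose product promotes decay of AU-rich mRNAs, had 0.49 (SE 0.232, FDR 0.871). Zc3h12a encodes Regnase-1, an endonuclease that degrades inflammatory mRNAs. It fell by 0.63 on the log2 scale in RNA (FDR 0.00544) and by 1.15 in RIP (FDR 7.29e-06), and its change of recovery was -0.51 (SE 0.209, FDR 0.871).

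Among the signalling lists the median changes of recovery were 0.06 for 30 cytokines and chemokines, 0.04 for 25 inflammatory enzymes and surface proteins, -0.07 for 32 NF-kB and MAP kinase regulators and 0.18 for 26 immediate-early transcription factors. The last of these rested mainly on replicate 4, with list medians of 0.07, 0.12, -0.05 and 0.46 in the 4 pairs. Of the 30 cytokines and chemokines, 11 fell and 1 rose in RNA, and 12 fell and 3 rose in RIP. Of all genes tested, 6.01% fell and 4.76% rose in RNA, and 9.73% fell and 8% rose in RIP. Cxcl2, a chemokine gene, rose in both (log2 1.57 in RNA, FDR 0.00196, and 2.28 in RIP, FDR 3.22e-05), with a change of recovery of 0.71 (SE 0.451, FDR 0.871). Interferon response genes had a median of -0.22, with 28 of 39 below 0. The list median was -0.46 in replicate 4 and -0.09 to -0.11 in the others.

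Of 31 Nrf2 target genes, which answer to oxidative stress, 19 rose in RNA and 18 in RIP, and 0 fell in either, where 4.76% of all genes tested rose in RNA and 8% in RIP. Their median change of recovery was -0.13 (-0.25 in replicate 4 and -0.10 to -0.05 in the others). Of 32 Atf4 target genes, which answer to amino acid shortage and endoplasmic reticulum stress, 20 rose in RNA and 17 in RIP, and 0 fell in either, against the same shares of all genes. Their median change of recovery was -0.23 (-0.45 in replicate 4 and -0.18 to -0.09 in the others). Of 31 heat shock and chaperone genes, 5 rose and 0 fell in RNA, and 8 rose and 2 fell in RIP. Their median change of recovery was 0.00, with list medians of -0.41 to 0.23 in the 4 pairs. Slc3a2, for an amino acid transporter subunit, rose by 2.25 in RNA (FDR 3.32e-10) and 1.75 in RIP (FDR 1.43e-08) on the log2 scale, a change of recovery of -0.50 (SE 0.207, FDR 0.871). Txnrd1, for thioredoxin reductase, rose by 1.02 (FDR 3.87e-05) and 1.39 (FDR 4.88e-07), a change of 0.37 (SE 0.209, FDR 0.871). Of 37 cell cycle and replication genes 18 fell in RNA and 19 in RIP, against 6.01% and 9.73% of all genes, and their median change of recovery was 0.10, with list medians of -0.11 in replicate 4 and 0.00 to 0.18 in the others.

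Housekeeping lists lay at the ends of the range. Of 74 nuclear-encoded oxidative phosphorylation genes, which were poorly recovered in DMSO (median log2 RIP over RNA -1.96), 70 were below 0, with a median of -0.37. In RIP 23 of them fell, where 9.73% of all genes did, and in RNA 0 were called, where 4.76% of all genes rose and 6.01% fell. The list's median was negative in 4 of 4 pairs, but ranged from -0.90 in replicate 4 to -0.09 in replicate 3. Of 79 cytosolic ribosomal protein genes, 71 were below 0 with a median of -0.29, which came mainly from replicate 4 (-0.83, against -0.12 to 0.07 in the others). Ribosomal protein genes have many near-identical pseudogenes, so their counts are uncertain. The 9 mitochondrially encoded genes that were tested had a median of 0.69, positive in 4 of 4 pairs (0.34 to 0.90), with 3 at an unadjusted p under 0.05 (mt-Nd4, mt-Nd5 and mt-Cytb, against 3.2% of all genes higher) and 0 called. The 2 of the 9 below 0 were the ribosomal RNA genes mt-Rnr1 (-0.16) and mt-Rnr2 (-0.48), the most abundant of them. The summed mitochondrial share of RIP counts was higher with TM7nox in replicates 1 to 3 (0.63%, 0.56% and 0.559% in LPS and 1.72%, 0.742% and 1.07% with TM7nox). In replicate 4 it was lower, 1.86% and 0.748%, with 15.5% and 15.9% in RNA. In IgG of replicate 3 the share was 5.57% in LPS and 5.31% with TM7nox, above RIP of that replicate. The list was also poorly recovered in DMSO (median log2 RIP over RNA -0.78), with 0 genes among the 2237 enriched there. How much of the mitochondrial signal in RIP came with HuR was not tested.

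**Figure D5:**
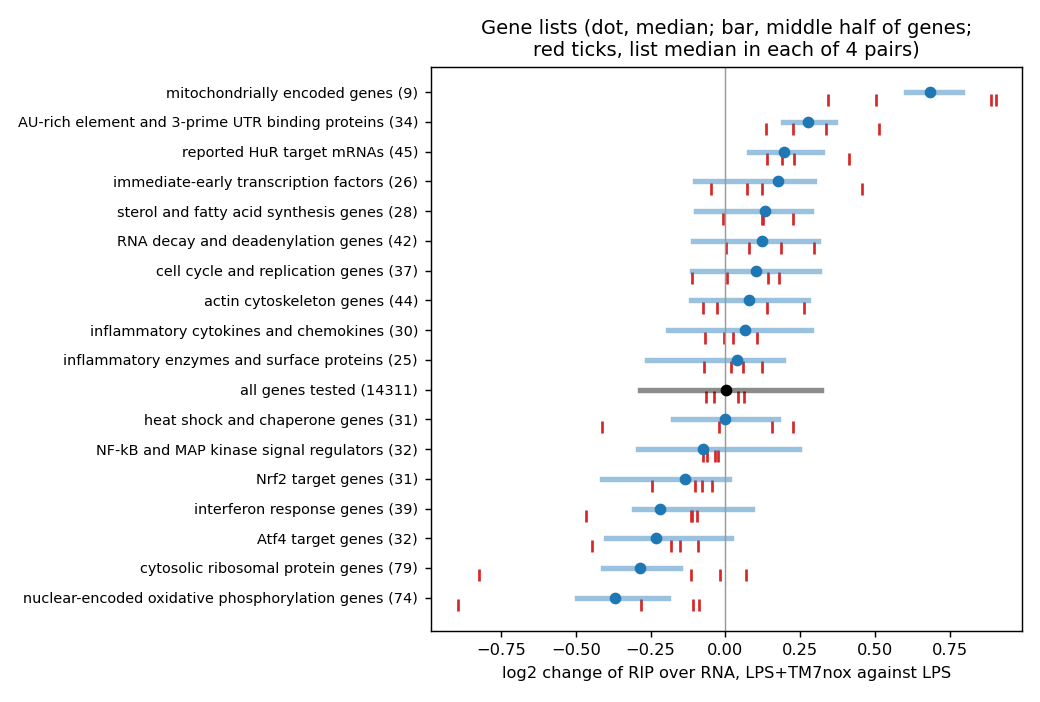
Log2 change of RIP over RNA, LPS+TM7nox against LPS, for 17 gene lists and all genes tested, with the number of genes in brackets. Dots are medians, bars the middle part of the genes from the 25th to the 75th percentile and red ticks the list median in each of the 4 pairs; mitochondrially encoded genes (0.69) lie highest and nuclear-encoded oxidative phosphorylation genes (-0.37) lowest.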

How the data were processed

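The authors deposited 1 table of raw counts per gene and library for 55483 mouse genes, with no normalization. Per the submitters' processing notes, FastQC 0.11.9, STAR, HTSeq, DESeq2 and GRCm39 were used, with no role given. Library protocols name a stranded kit and 7 ng of RNA per library. The annotation release and any use of the strand in counting: not given in the sources used here. Therefore reads of overlapping genes cannot be told apart. No molecular identifiers are stated.

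Here, counts were tested in edgeR 4.0.16 (R 4.3.3): TMM scaling, filterByExpr with a minimum count of 10, 24 RNA and RIP libraries fitted as 6 group means, and quasi-likelihood F tests of the contrast, two-sided, with Benjamini-Hochberg adjustment over 14311 genes. Standard errors are Wald errors from the fitted weights. TMM takes most genes as equal between libraries, and a change of recovery shared by all genes could not be seen. Per-pair values are log2 CPM with a prior count of 2, scaled as in that fit. Genes enriched in DMSO came from a separate fit of the 8 DMSO libraries, with the mean of at least 5 CPM taken over all 24. Single values per pair had exact permutation tests, adjusted over 3. Alternatives included DESeq2 1.42.0 and voom in limma 3.58.1.

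Same-numbered libraries deviated together from their group means (correlations of 0.165 to 0.505 in 24 pairs of libraries, 22 of them the best match), so the numbers were taken to pair the samples. No 2 replicates agreed within sampling noise (chi-square per gene 38.0 to 213). Positions and 3′ UTRs came from GENCODE M39 canonical transcripts, which matched 98.9% of the genes tested. Gm5526 was aligned with blastn 2.17.0.

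The named-gene rule took the panel and up to 8 called genes per direction of at least 5 CPM without overlap, plus called genes of the lists, leaving out predicted symbols and pseudogenes; 0 genes met these further conditions. The panel, lists and tests were chosen with earlier results of these data known. The scripts were checked on simulated counts.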

Additional observations from a re-analysis of the deposited data

Results flagged for a closer look

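Of 26 groups of 4 pair values, 2 held a value far from the rest, which chance gives in about 1 of 20 groups. Il10 in LPS had a log2 RIP over RNA of 0.43 in replicate 1, while the other 3 pairs lay between -0.11 and -0.06. The log2 ratio of the Actb share in RIP to that in RNA was 3.534 in LPS replicate 4, while the other 3 LPS pairs lay between 3.826 and 3.868.

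Gm5526 stands out because the change by TM7nox in RIP differed from that in RNA by 2.89 on the log2 scale, which edgeR called over the 24 libraries without a replicate block.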

How the results depend on the processing

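The count of 1 called gene changed with the setting. It was 2 (Gm5526 and Hnrnpc) with library totals, with upper-quartile scaling and with TMM within RIP and within RNA. It was 5 with no filter on low counts, 3 by DESeq2, and 0 in replicates 1 and 2 alone and 0 in replicates 3 and 4 alone. Leaving out replicates or libraries gave 0 to 3, with 0 without replicate 2 and without replicate 4, 3 without RIP LPS replicate 3 and 2 without RIP LPS+TM7nox replicate 1. The cause was not tested; fewer libraries also leave fewer degrees of freedom. With a mean of at least 5 CPM the 1 called gene was Hnrnpc, since Gm5526 was then not tested. The replicate block, over all libraries or within treatment, called 2 genes and changed the call of Hnrnpc among the genes named. The uncalled sign of some panel genes turned over. Il10 was -0.0036 and Nos2 -0.045 with no filter, Il10 -0.22 in replicates 1 and 2 alone, and Nos2 -0.11 in replicates 3 and 4 alone. Over the fits without a replicate or library, Il10 ranged from -0.0914 to 0.44, Nos2 from -0.13 to 0.24, Il6 from -0.14 to 0.89 and Ifnb1 from -0.20 to 0.96. The median change of the genes enriched in DMSO lay between 0.23 and 0.44 under 33 of 34 alternatives. It was 0.13, with 0.12 over all 4721 genes then tested, when only genes with anti-HuR at least 2 times IgG were kept and scaled. The 3 values per pair were positive under each alternative run for them. Their exact p stayed at 0.0571 with the other filter, scaling, enrichment minimum or share tried. The fits without a replicate and in 2 replicates alone cannot pass the threshold and say nothing of it.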
